A study of Mus musculus with 8 samples.

Results

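Glycolysis, glycogen metabolism and lactate transport were followed through 30 genes in white quadriceps of mice with and without Acot2 in muscle. The members were taken by symbol from the deposited expression table and cover glucose entry, every step from glucose to lactate, the building and breakdown of glycogen, and lactate transport across the cell membrane. All 30 were found among the 54091 rows of the table, and all 30 were among the 13141 genes with a mean of at least 10 normalized counts that were tested. The RNA-seq libraries came from 8 male mice aged 11 to 14 weeks, 1 library per mouse, all fasted overnight for 14 h. The 4 floxed control mice had the genotype Loxp/Loxp (replicates 1 to 4), and the 4 Acot2 muscle knockout mice were CKM Cre animals (replicates 5 to 8), in which the muscle creatine kinase promoter drives Cre. Deletion was therefore directed at muscle fibres and not at the other cells of the tissue. Mice with Cre but no floxed allele were not analysed here, so Cre and the loss of Acot2 cannot be told apart.

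White quadriceps is made up mainly of fast glycolytic fibres, which break down stored glycogen and blood glucose to lactate during brief, strong contractions. Nearly every step of the pathway has several isoforms encoded by different genes, and skeletal muscle is known for its own set: the glucose transporter Slc2a4 (GLUT4), the phosphofructokinase Pfkm, the phosphoglycerate mutase Pgam2, the enolase Eno3, the glycogen phosphorylase Pygm and the lactate exporter Slc16a3. Acot2 encodes a mitochondrial thioesterase that releases free fatty acid from long-chain acyl-CoA, and fatty acids and glucose compete as fuels of muscle, most clearly during a fast.

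Values of 1 gene are the authors' size-factor-normalized read counts. Levels of different genes are compared only per kilobase of exon. A difference is knockout minus floxed control in log2(normalized count + 1), with the standard error (SE) of limma and 4 mice per group. Reads on genes ranged from 28659632 to 40977866 per library. Acot2 itself ranged from 1530 to 3927 normalized counts in floxed controls and from 312 to 600.5 in knockouts, so the groups did not overlap. All 9 listed markers of fast glycolytic fibres were above 0 in every library, and their sum ranged from 4351161 to 5269635 in floxed controls and from 3386657 to 5124441 in knockouts. Knockout 7 stood apart: the 8 markers of fast oxidative and slow fibres summed to 59970 normalized counts there, of which the single gene Myh2 gave 59055, against 4519 to 18843 in floxed controls and 4200 to 7591 in the other knockouts. In bulk tissue, a smaller share of a fibre type and less RNA per fibre cannot be told apart.

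At most steps, a single gene held nearly all of the RNA measured for its family, per length. In 20 families in which a step has several genes, the gene with the highest level per length was a member in 19. The members were chosen with earlier results known and include the known muscle forms, so this count describes the list and tests nothing. For Gapdh, Pgk1 and Pkm, the only other gene of the family had no read. In 19 of the 20, every library's value for the highest gene lay above every library's value for the next. Aldoa, which splits fructose bisphosphate into triose phosphates, had the highest level of all members, at 143266 normalized counts per kilobase (122862 to 172195 over the 8 libraries), and ranked 15 among 12440 genes with a length. Eno3 followed at 68052 (52839 to 108877), then Pygm at 43225 (32971 to 46696) and Pfkm at 30791 (27942 to 37592). These 4 genes did not overlap over the libraries, except that the ranges of Pygm and Pfkm did. Gapdh, Pgam2, Pkm, Ldha and Tpi1 came next, between 18924 and 15009 per kilobase, and their ranges overlapped. At the low end stood Slc2a1 at 125, Pgm1 at 21.4 and Hk1 at 20.3 per kilobase.

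**Figure D1:**
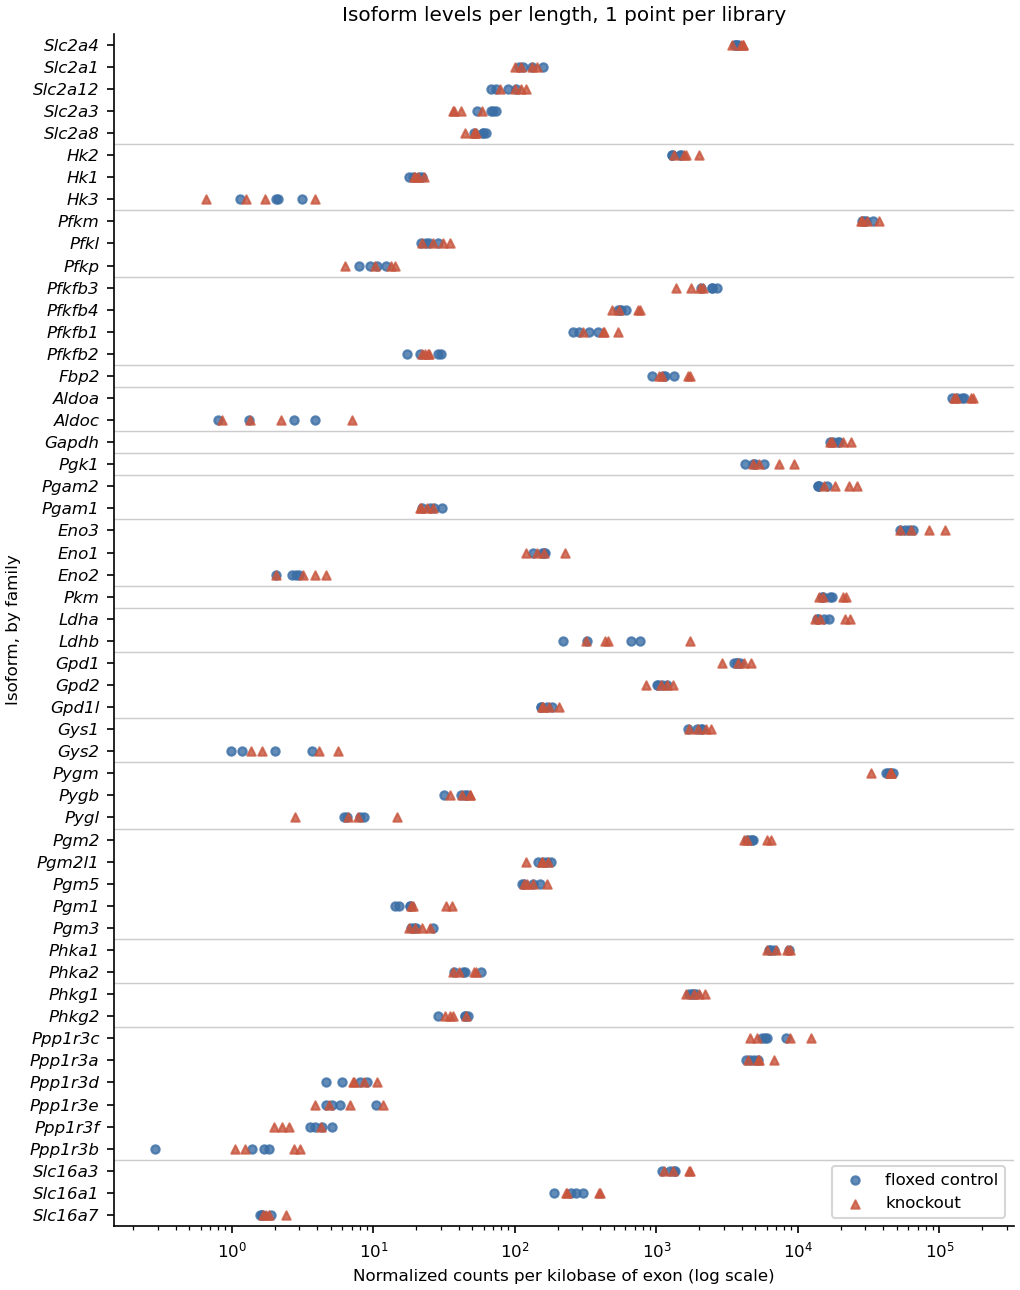
Normalized counts per kilobase of exon (log axis) for the members and their isoforms, by family, with 1 point per library (circles, floxed control; triangles, knockout). Isoforms that averaged under 1 per kilobase or were at 0 in a library are left out. The genes Aldoa, Eno3, Pygm and Pfkm lie at the right, with the lowest value, of Pfkm, at 27942.

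At the entry of glucose, Slc2a4, the insulin-responsive transporter, had 3770 normalized counts per kilobase against 125 for the widely expressed Slc2a1, a 30.2-fold gap. Slc2a12 at 92.5 and Slc2a3 at 54.8 followed. The hexokinase Hk2, which traps glucose in the cell as glucose phosphate and is the form of insulin-sensitive muscle, stood at 1502 per kilobase (1278 to 2008 over the libraries). Hk1 was at 20.3 (18.0 to 22.7), so the ranges lay far apart. Further down, Pfkm exceeded the liver form Pfkl 1160-fold (26.5 per kilobase), and Eno3 exceeded the widely expressed Eno1 432-fold (158 per kilobase). Pgam2 exceeded Pgam1 711-fold (24.7 per kilobase). Aldoc, the aldolase of brain, was at 2.5 per kilobase, and the muscle fructose bisphosphatase Fbp2, which runs against phosphofructokinase, was at 1256 while Fbp1 had 3 reads in all 8 libraries together. No read was counted for Gapdhs, Pgk2, Pklr or Ldhc, and a count of 0 allows up to 3 reads over all libraries.

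Glycogen genes showed the same order of isoforms. Pygm, which cuts glucose units from glycogen, stood 1030-fold above Pygb, the brain form (41.95 per kilobase). The glycogen synthase Gys1, at 2006 per kilobase, stood 781-fold above the liver form Gys2. In phosphorylase kinase, which switches phosphorylase on, the muscle alpha subunit Phka1 exceeded Phka2 160-fold, and the muscle catalytic subunit Phkg1 exceeded Phkg2 47.6-fold. Families with smaller gaps were lactate dehydrogenase (Ldha 27.0-fold above Ldhb), the monocarboxylate transporters (Slc16a3, the lactate exporter, 4.83-fold above Slc16a1), the bifunctional enzymes that set the activator of phosphofructokinase (Pfkfb3 3.53-fold above Pfkfb4, with Pfkfb1 at 367 per kilobase) and cytosolic Gpd1 against mitochondrial Gpd2 (3.48-fold). In the PPP1R3 family, whose members bring protein phosphatase to glycogen, Ppp1r3c at 7057 and Ppp1r3a at 5088 per kilobase were 1.39-fold apart and overlapped over the libraries.

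Phosphoglucomutase is the family in which the highest gene was not a member, and its symbols need care. The row named Pgm1 carries gene ID 66681, on chromosome 5 from 64092950 to 64128351 in GRCm38, which the GENCODE annotation names Pgm2. It had 21.4 normalized counts per kilobase. The row named Pgm2, which GENCODE names Pgm1, had 4929 per kilobase, 31.5-fold above the next gene, Pgm2l1. Its normalized counts were 12725, 14004, 13720 and 13365 in floxed controls and 12775, 17728, 12085 and 18785 in knockouts, a difference of 0.16 (SE 0.14). Pgm1 below always means the row of that name, and its place among the genes of glycogen breakdown rests on that symbol alone.

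The leading isoform did not depend on the measure of length. The same gene led in all 20 families with the longest annotated transcript and with the longest transcript paired with a curated RefSeq mRNA. The order below the leading gene was not compared and can change with the length. Slc2a3 has 7245 bases of annotated exon and 3959 of RefSeq mRNA, against 4237 and 4167 for Slc2a12. Single levels did move, most for Gapdh, at 18924 per kilobase of all annotated exons, 23780 per kilobase of its longest transcript and 55079 per kilobase of its RefSeq mRNA. Aldoa moved from 143266 to 269236 with the longest transcript. Fold gaps within families, given above per kilobase of all annotated exons, also depend on the length. Eno1 has 5379 bases of annotated exon and 2027 of RefSeq mRNA, against 1739 and 1564 for Eno3. The gap between these genes is therefore smaller with the RefSeq mRNA. The ranking across families did depend on the length. With the RefSeq mRNA, Gapdh stood above Pygm at 48399 and Pfkm at 35722, and Pkm at 34967 came close to Pfkm. Several of these genes also have many pseudogenes that can take or give reads: 292 pseudogene rows named for Gapdh summed to a mean of 1024 normalized counts, and 31 for lactate dehydrogenase to 54.3. The counts of Gapdh, Ldha, Aldoa and Pkm carry that uncertainty.

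Between genotypes, no member passed the test, while most had a somewhat higher mean in the knockout. With limma, 0 of the 30 had an adjusted p under 0.05, as had 0 of all 13141 tested genes (0.0%). The deleted gene Acot2, also tested, differed by -2.30 (SE 0.287) and did not pass either (limma's adjusted p = 0.087). A gene that misses this threshold is therefore not shown to be unchanged. The mean was higher in the knockout for 26 of the 30 members, against 50.6% of all tested genes, and the exceptions were Slc2a1, Pfkfb3, Gyg and Pygm. The median difference over the members was 0.15, beside 0.0031 over all tested genes. At an unadjusted p under 0.05 there were 4 members higher (Pgam2, Pfkfb1, Gbe1 and Pgm1) and 1 lower (Pfkfb3), where 2.47% of all tested genes were higher and 3.7% lower at that level. With voom, run on the recovered reads, 0 members passed after adjustment and 4 before it. In 1 member, Pgm1, every knockout lay above every floxed control, as in 1.13% of all tested genes, and in 0 members every knockout lay below, as in 1.62%.

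**Figure D2:**
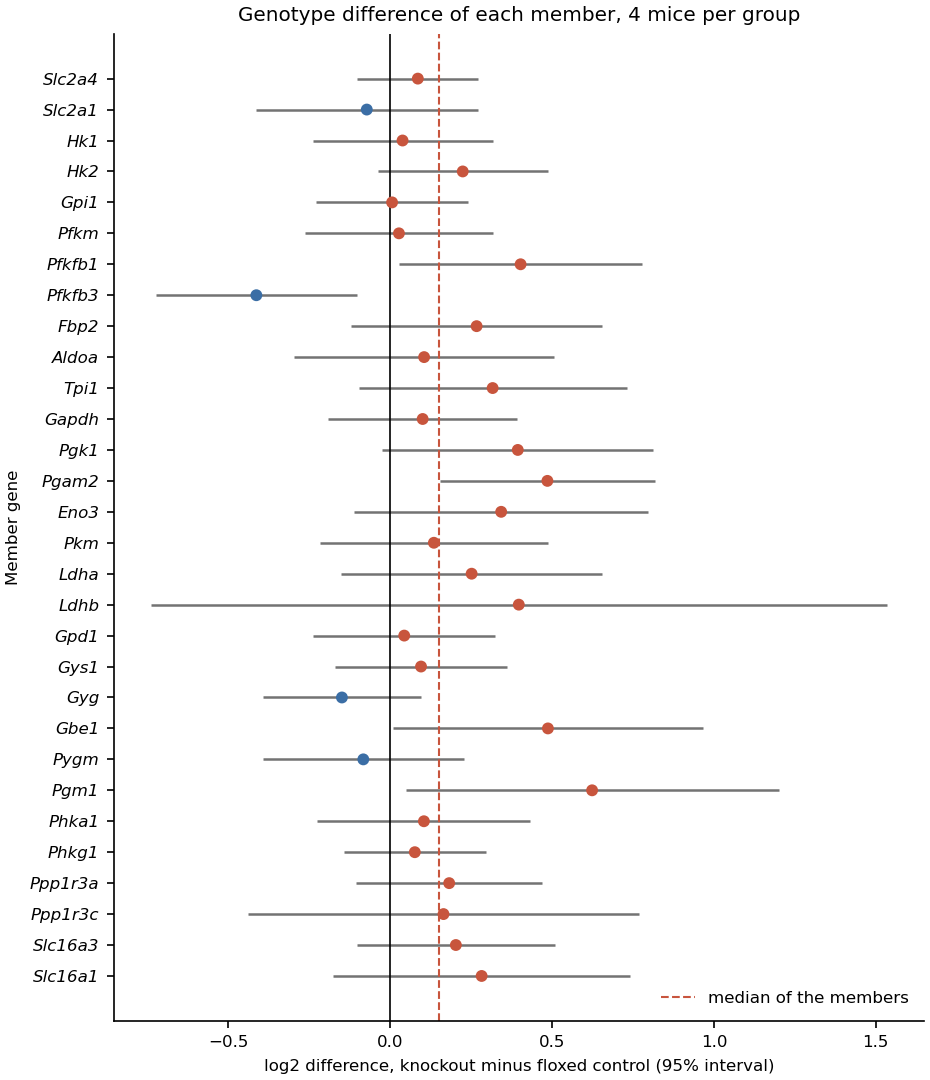
Difference of each member, knockout minus floxed control in log2(normalized count + 1), with its 95% interval from limma (4 mice per group); blue points lie below 0 and red points above, and the dashed line is the members' median of 0.15. Only Pgam2, Pfkfb1, Gbe1, Pgm1 and Pfkfb3 have intervals that leave out 0, and none has an adjusted p under 0.05.

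The higher values lay mainly in knockouts 6 and 8. Knockout 6 had the highest value of the 8 libraries in 14 members and knockout 8 in 8, while 18.0% and 14.7% of all tested genes were highest in these libraries. The median of the members against the floxed control mean was 0.28 in knockout 6 and 0.36 in knockout 8, but -0.095 in knockout 5 and -0.028 in knockout 7. It was -0.034, 0.088, 0.047 and -0.098 in floxed controls 1 to 4. Above the control mean were 25 members in knockout 6 and 28 in knockout 8, against 8 in knockout 5 and 14 in knockout 7. Without knockout 8 the median difference was 0.067, without knockout 6 it was 0.086 and without knockout 5 it was 0.24. Leaving out knockout 5 brought the unadjusted count from 5 members to 13, and leaving out knockout 6 or knockout 8 brought it to 2; it was 3 without floxed control 4.

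**Figure D3:**
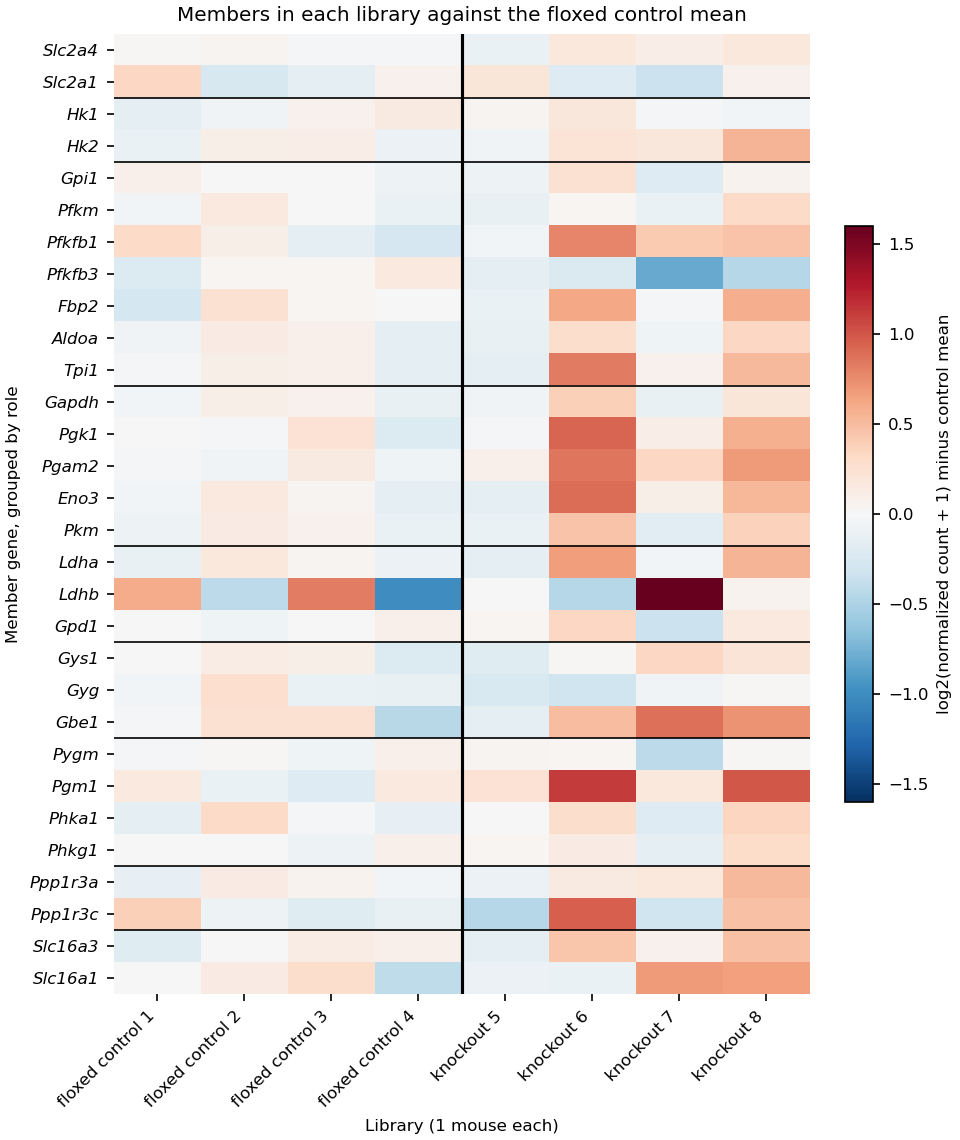
Each member in each library as log2(normalized count + 1) minus the floxed control mean (colour; red above, blue below), ordered by role, with the genotypes split by the thick line. Columns 6 and 8 are red for most genes, with medians of 0.28 and 0.36, while columns 5 and 7 are mixed.

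Together the members took 3.36, 3.69, 3.72 and 3.20% of all normalized counts in the floxed controls, in order, and 3.28, 4.43, 3.65 and 4.39% in the knockouts. The shares in knockouts 6 and 8 lay above those of every floxed control. The giant transcript Ttn, chosen after its values were seen, took 11.8 to 14.9% in floxed controls and 13.9% in knockout 5, against 8.67, 8.34 and 9.22% in knockouts 6, 7 and 8. Its part in the members' values was not tested. With every library scaled to the same total, 26 members were again higher and the median was 0.19. Markers of other cells were counted too, beside 50.6% of all tested genes with a higher mean in the knockout. All 8 of macrophages had a higher mean in the knockout, and their sum ranged from 1423 to 2787 in floxed controls and from 2474 to 4491 in knockouts, highest in knockout 6. Endothelial markers summed to 7313 to 8383 in floxed controls and 8359 to 9999 in knockouts, highest in knockout 5. Fibroblast markers, of which 5 of 6 had a higher mean, summed to 55051 in knockout 6, against 24437 to 36966 in floxed controls and 23843 to 31822 in the other knockouts. A higher mean was also found for 6 of 6 markers of Schwann cells (sums of 1362 to 2033 in floxed controls and 1462 to 2086 in knockouts), 5 of 5 tested ones of red blood cells (1122 to 5375 and 1899 to 3198), 3 of 5 of adipocytes (219 to 2138 and 539 to 1859) and 2 of 4 of satellite cells (698 to 758 and 616 to 739). The part of these cells in the members' values was not tested.

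The member glucose transporters Slc2a4 and Slc2a1 and the hexokinase Hk1 had differences near 0, and Hk2 a larger one. Slc2a4 was at 12909, 13087, 12447 and 12387 normalized counts in floxed controls and 11802, 14225, 13720 and 14329 in knockouts. It was the most even of the members within controls, and 3 knockouts lay above them all and 1 below, with a difference of 0.09 (SE 0.0848, 95% interval -0.10 to 0.27). Slc2a1 differed by -0.07 (SE 0.156), with overlapping groups. Hk2 was at 7628, 8734, 8841 and 7731 in floxed controls and 7933, 9594, 9292 and 11984 in knockouts. Knockouts 6, 7 and 8 exceeded every control, and the difference was 0.22 (SE 0.119, limma's unadjusted p = 0.0877). Hk1, the hexokinase of brain and red cells, ranged from 153 to 194 over all libraries and differed by 0.04 (SE 0.126).

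From hexose phosphate to triose phosphate, differences were near 0 for Gpi1 and Pfkm and larger for Tpi1 and the regulators. Gpi1, which turns glucose phosphate into fructose phosphate, differed by 0.01 (95% interval -0.23 to 0.24). Pfkm, the phosphofructokinase that commits sugar to glycolysis, differed by 0.03 (-0.26 to 0.32), with 94602 to 112603 normalized counts in floxed controls and 93326 to 125557 in knockouts. Aldoa differed by 0.10 (SE 0.182). Tpi1, which makes the triose phosphates interchangeable, was at 35543, 38329, 38176 and 32475 in floxed controls and 32332, 64022, 37875 and 51811 in knockouts, a difference of 0.32 (SE 0.188). Knockouts 6 and 8 exceeded every control, and knockout 5 lay below them all. Fbp2 followed a similar line, at 1359 to 1952 in floxed controls and 1525, 2536, 1618 and 2453 in knockouts (0.27, SE 0.176).

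Of the bifunctional enzymes that make and remove the activator of phosphofructokinase, Pfkfb3 and Pfkfb1 had differences of opposite sign. Differences were smaller for Pfkfb4, at 0.14 (SE 0.14), and Pfkfb2, at -0.0084 (SE 0.18). Pfkfb3, on chromosome 2 from 11471433 to 11554077 in GRCm38, encodes the form with the strongest kinase activity. It was at 15543, 18594, 18538 and 20145 normalized counts in floxed controls and 16216, 15412, 10374 and 13230 in knockouts. Every knockout but 5 lay below all controls, and knockout 5 lay above floxed control 1. The difference was -0.41 (SE 0.141, limma's unadjusted p = 0.0135, adjusted p = 0.746). Pfkfb1, the form known from liver and muscle, lies on chromosome X from 150588229 to 150643878. It was at 1540, 1335, 1134 and 1039 in floxed controls and 1209, 2147, 1670 and 1709 in knockouts. Here knockouts 6, 7 and 8 lay above every control, with a difference of 0.40 (SE 0.17, limma's unadjusted p = 0.0376, adjusted p = 0.746).

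**Figure D4:**
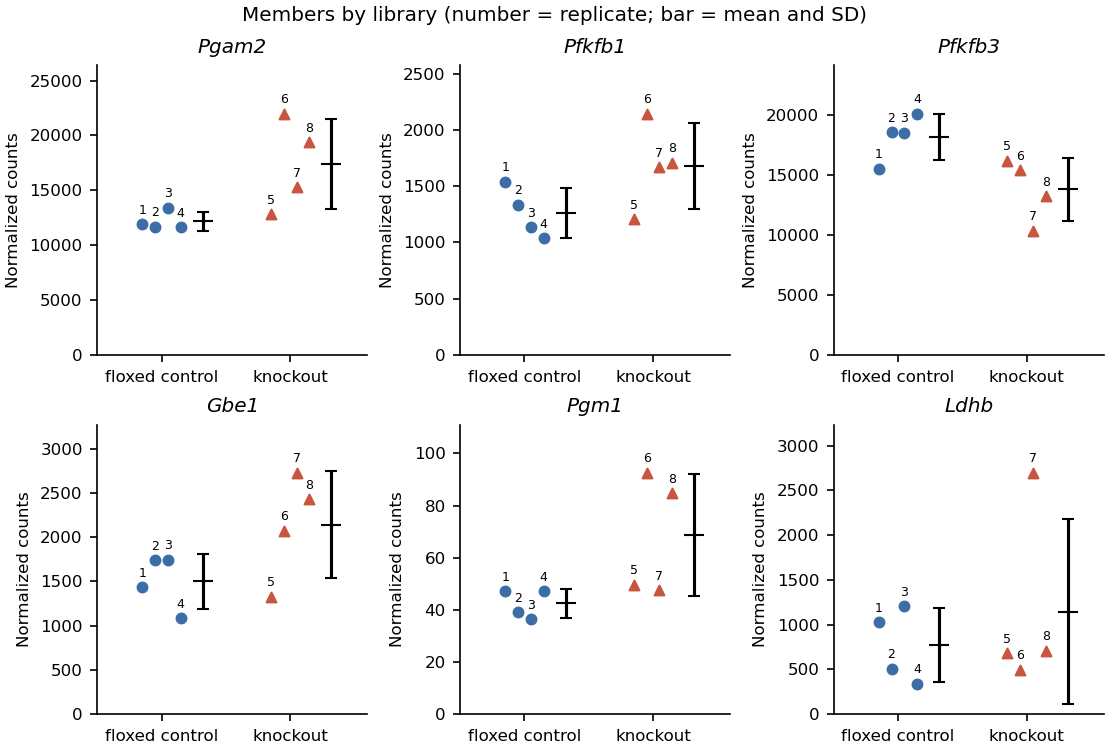
Normalized counts of 6 members in each library (number, replicate; circles, floxed control; triangles, knockout), with the mean and SD of 4 mice beside each group and axes that start at 0. Knockouts 6, 7 and 8 lie beyond every floxed control for Pgam2, Pfkfb1, Gbe1 and, downwards, Pfkfb3, and knockout 7 is far above the others for Ldhb.

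The 5 members from triose phosphate to pyruvate all had a higher mean in the knockout, with a median difference of 0.34 beside 0.0031 over all tested genes. Pgam2, the muscle phosphoglycerate mutase on chromosome 11 from 5801640 to 5803733, was at 11922, 11675, 13429 and 11617 normalized counts in floxed controls. Knockouts 5 to 8 had 12838, 21993, 15255 and 19385. All but knockout 5 lay above every control, and the difference of 0.49 (SE 0.15, limma's unadjusted p = 0.00809, adjusted p = 0.746) had the smallest p of all members. Pgk1, the first step of glycolysis that yields ATP, was at 11145, 10863, 12965 and 9526 in floxed controls and 10816, 21177, 11893 and 16378 in knockouts (0.39, SE 0.19). Eno3 was at 98784, 113174, 105208 and 91888 in floxed controls and 91958, 189336, 108881 and 147514 in knockouts (0.34, SE 0.206). For Pgk1 and Eno3, knockouts 6 and 8 exceeded every control and knockouts 5 and 7 lay among them. Gapdh, often used as a reference transcript, differed by 0.10 (SE 0.133), with 69185 to 79965 in floxed controls and 72028, 97748, 69368 and 85800 in knockouts. Pkm, which makes pyruvate, differed by 0.14 (SE 0.16).

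Ldha, which turns pyruvate into lactate, was also highest in knockouts 6 and 8, at 45126, 54803, 50636 and 45775 in floxed controls and 43798, 77724, 47346 and 71437 in knockouts (0.25, SE 0.183), with knockout 5 the lowest of all libraries. Knockout 6 was the highest library in 18.0% of all tested genes, and the share that had knockout 8 next was not counted. In 12 members, knockout 6 was the highest library and knockout 8 the next. For 4 of these from the last steps to lactate, Pgk1, Pgam2, Eno3 and Ldha, chosen after their values were seen, the 160 bases before the RefSeq start sites are printed here as examples (GRCm38.p6, gene strand, 5′ to 3′). They lie at chrX:106186940-106187099 (plus strand), chr11:5803797-5803956 (minus), chr11:70657016-70657175 (plus) and chr7:46845644-46845803 (plus, the first of 2 starts of Ldha), and none overlaps an annotated exon. Capitals mark ACGTG on either strand, the core of the sites of hypoxia-inducible factors, and CANNTG, the E-box of helix-loop-helix factors such as MyoD. A CACGTG counts as both, and as ACGTG on each strand.
Pgk1: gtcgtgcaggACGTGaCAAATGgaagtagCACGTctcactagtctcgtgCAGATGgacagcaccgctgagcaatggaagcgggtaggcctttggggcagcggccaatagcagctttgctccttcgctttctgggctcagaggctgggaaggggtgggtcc
Pgam2: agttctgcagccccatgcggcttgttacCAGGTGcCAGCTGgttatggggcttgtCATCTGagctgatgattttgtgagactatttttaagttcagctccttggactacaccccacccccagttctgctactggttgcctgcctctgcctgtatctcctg
Eno3: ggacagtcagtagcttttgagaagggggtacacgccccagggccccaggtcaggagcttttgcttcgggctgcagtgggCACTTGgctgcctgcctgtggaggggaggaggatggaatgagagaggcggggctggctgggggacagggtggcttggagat
Ldha: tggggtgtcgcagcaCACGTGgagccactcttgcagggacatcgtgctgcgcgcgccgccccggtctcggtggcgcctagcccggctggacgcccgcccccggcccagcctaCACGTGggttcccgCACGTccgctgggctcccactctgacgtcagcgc
Pgk1 held 2 matches to ACGTG and 2 to CANNTG, and Ldha held 5 and 2, among them 2 copies of CACGTG. Pgam2 held 3 matches to CANNTG and Eno3 held 1, with 0 to ACGTG in these windows. Of all 32851 RefSeq windows of this length, 11.7% held ACGTG, 49.8% held CANNTG and 4.5% held CACGTG. RefSeq entries matched 28 of the 30 members with 40 windows, of which 14 (35.0%) held ACGTG, 28 held CANNTG and 5 (12.5%) held CACGTG. A match describes the letters and does not show that a factor binds.

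Ldhb, the lactate dehydrogenase of oxidative tissue, varied most between mice. It was at 1030, 509, 1208 and 340 normalized counts in floxed controls and 681.5, 498, 2697 and 710 in knockouts. Knockout 7 stood above all others, and the difference of 0.40 had an SE of 0.516; without knockout 7 it was -0.13. The same library had the most Myh2, the oxidative myosin that makes up nearly all of the oxidative marker sum above, and floxed controls 1 and 3, the next highest in Ldhb, had 18567 and 18357 normalized counts of Myh2. The other libraries had between 4005 and 7087. The part of fibre type in the Ldhb values was not tested. Gpd1, which links glycolysis to glycerol phosphate, differed by 0.04 (SE 0.128).

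Of the genes that build glycogen, only Gbe1 had an unadjusted p under 0.05. Gbe1, the branching enzyme, lies on chromosome 16 from 70313949 to 70569716 and was at 1437, 1740, 1747 and 1083 normalized counts in floxed controls and 1330, 2073, 2729 and 2430 in knockouts. All knockouts but 5 exceeded every control, with a difference of 0.49 (SE 0.217, limma's unadjusted p = 0.0464, adjusted p = 0.746). Gys1 was at 7955 to 10043 in floxed controls and 8098 to 11633 in knockouts (0.10, SE 0.121). Gyg, glycogenin, which primes the glycogen particle, had a lower mean, at 7365 to 9683 in floxed controls and 6420 to 8089 in knockouts (-0.15, SE 0.111).

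Among the genes of glycogen breakdown, Pygm was at 139537, 144428, 135891 and 150269 normalized counts in floxed controls and 146434, 145958, 106102 and 144178 in knockouts. The other 7 libraries lay at 135891 or above, and the difference was -0.08 (SE 0.141), or 0.031 without knockout 7. Phka1 differed by 0.10 (SE 0.149) and Phkg1 by 0.08 (SE 0.0994). Pgm1 stands among these genes by its symbol only, since GENCODE names that row Pgm2. It was at 47.2, 39.2, 36.5 and 47.1 in floxed controls and 49.6, 92.6, 47.5 and 84.7 in knockouts. The groups did not overlap, but knockout 7 exceeded floxed control 1 by less than 1 count, and these values rest on 35 to 85 reads per library. The difference of Pgm1 was 0.62 (SE 0.262, limma's unadjusted p = 0.0363, adjusted p = 0.746). Of the phosphatase-targeting subunits, Ppp1r3a was at 29962 to 36081 in floxed controls and 30839 to 47209 in knockouts (0.18, SE 0.13). Ppp1r3c spread more widely, at 22484, 16368, 15121 and 15944 in floxed controls and 12586, 33618, 13888 and 23841 in knockouts. Knockouts 6 and 8 lay above all controls and knockouts 5 and 7 below all of them, so that the difference of 0.16 had an SE of 0.275.

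Lactate transporters had higher means in the knockout without passing the test. Slc16a3 was at 5861, 6630, 7220 and 7088 normalized counts in floxed controls and 5967, 9070, 6993 and 9222 in knockouts (0.20, SE 0.139). Slc16a1, the form known for lactate uptake in oxidative fibres, was at 1101, 1201, 1336 and 829 in floxed controls and 1031, 1018, 1767 and 1728 in knockouts (0.28, SE 0.209). Knockouts 6 and 8 were the highest for Slc16a3, and knockouts 7 and 8 for Slc16a1.

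Ratios of paired genes within a library, which do not depend on how the library is scaled, were compared for 10 pairs. An exact permutation test, two-sided, went through all 70 ways to assign the mice to 2 groups of 4, with adjustment over the pairs. The smallest p this test can give is 0.0286. The log2 ratio of Pgam2 to Pgam1 was 7.61, 7.75, 8.04 and 8.03 in floxed controls and 8.18, 8.98, 8.17 and 8.65 in knockouts. Every knockout lay above every control, with a difference of 0.64 (exact permutation p = 0.0286, adjusted 0.285), although Pgam1 had only 42.5 to 60.0 normalized counts. The log2 ratio of Pfkfb3 to Pfkfb1 was 3.33, 3.80, 4.03 and 4.28 in floxed controls and 3.74, 2.84, 2.63 and 2.95 in knockouts, a difference of -0.82 (exact permutation p = 0.0571, adjusted 0.285), and only knockout 5 overlapped the controls. The other 8 ratios had exact permutation p from 0.229 to 1.0. Among these, Slc2a4 to Slc2a1 differed by 0.16, Hk2 to Hk1 by 0.19, Pygm to Gys1 by -0.18 and Pfkm to Fbp2 by -0.24.

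**Figure D5:**
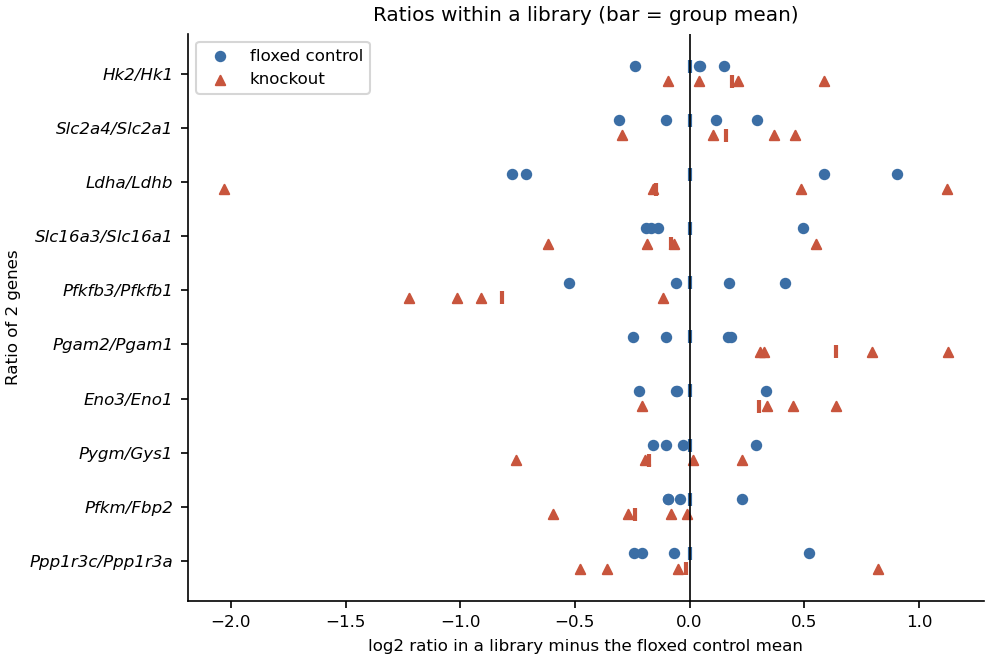
Log2 ratio of 2 genes in each library minus the floxed control mean (circles, floxed control; triangles, knockout; bars, group means) for 10 pairs. Only for Pgam2 to Pgam1 do all knockouts lie to the right of all floxed controls; for Pfkfb3 to Pfkfb1, 3 of the 4 knockouts lie to the left.

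Genes around the members were read from lists of related genes. Of all tested genes, 50.6% had a higher mean in the knockout. By limma, 2.47% were higher and 3.7% lower at an unadjusted p under 0.05. Of 42 other isoforms, 29 were tested, 19 had a higher mean in the knockout and 10 a lower one, and at an unadjusted p under 0.05 there were 0 higher and 1 lower. That gene was Slc2a3, a high-affinity glucose transporter, at 532, 489, 388 and 509 normalized counts in floxed controls and 425.5, 267, 299 and 265 in knockouts (-0.63, SE 0.164, limma's unadjusted p = 0.00289, adjusted p = 0.746). Knockouts 6, 7 and 8 lay below every control. Slc2a12 was next by p, at 0.30 (SE 0.16). Of 35 further enzymes and partners of the pathway, among them glycogen debranching, the pentose phosphate path and pyruvate import, 28 had a higher mean, with a median of 0.13, and 0 were higher and 2 lower at an unadjusted p under 0.05. These were Gaa, the lysosomal enzyme that degrades glycogen, at -0.25 (SE 0.0863), and Gsk3b, a kinase that inhibits glycogen synthase, at -0.29 (SE 0.106). Of 20 genes of regulators, 9 had a higher mean and 11 a lower one, with a median of -0.015. Mef2d, a transcription factor of muscle genes, had the smallest p there, at 4801, 4685, 4840 and 5151 in floxed controls and 4887, 3254, 3595 and 3742 in knockouts (-0.35, SE 0.114), and Mlxip, a glucose-sensing factor, was at -0.27 (SE 0.15). Adjusted over all genes, 0 genes of these lists passed.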

How the data were processed

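RNA-seq was made from white quadriceps of 4 floxed control and 4 Acot2 muscle knockout mice. Per the labels' protocols, RNA was purified with a Norgen kit before stranded TruSeq library preparation. The tools were cutadapt, FastQC, STAR, HTSeq and DESeq2, with the mouse build GRCm38, per the submitters' processing notes (versions, annotation release and strand setting not given in the sources used here). Values in the deposited table are log2, without scaling for gene length: from the values, each is log2(n + 1), where n is the gene's reads over the size factor of that library. Of values of at most 200 reads, 100% came out within 0.1 of a whole read in every library. Reads on genes ranged from 28659632 to 40977866, and depth limits only genes with few reads, such as Pgm1.

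Genes with a mean of at least 10 normalized counts (13141) were fitted with limma 3.58.1 in R 4.3.3 (lmFit and trended eBayes); p-values were adjusted by Benjamini-Hochberg over all of them, with a threshold of 0.05. Intervals cover 95%. The fold scale, log2(n + 1), understates differences of low genes. Ratios were tested by exact permutation. Lengths are the union of a gene's exons in GENCODE for GRCm38, with positions counted from 1; a length was found for 12440 tested genes (94.7%). The limma fit was also run on simulated data with the means and spreads of these genes. Each title has a mouse number of its own, and nothing further says how the animals are related, so p-values measure the spread between these 8 mice; the most alike pair of one group, floxed controls 1 and 3, differed by 23.1 times the sampling noise in a chi-square test, and none was taken as a duplicate.

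The members and the lists were chosen with earlier results of these data known. Named are all members, the 1 or 2 other isoforms with the highest level per length in each family, and in each other list the 2 genes with the smallest p; Ttn, Myh2, the genes of the malate-aspartate shuttle and isoforms outside this rule were chosen after their values were seen. Of the listed genes, 1 matched no row, and 1 isoform that the rule selects is not reported or plotted here. Alternatives covered the pseudocount, the filter, 3 rescalings, robust and weighted fits, voom on recovered reads, the range of mouse numbers, length and GC content, transcript length and leaving out libraries; leaving out floxed control 4 with knockout 5, and the RefSeq length, were chosen after seeing the data.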

Additional observations from a re-analysis of the deposited data

Results flagged for a closer look

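In a group of 4 libraries, a library was singled out when its gap to the nearest other exceeded the critical share of the group's range for 4 values in Dixon's test. Over 80 groups of members' levels and ratios, 3 were singled out, and chance singles out about 1 in 20. Pygm in knockout 7, at 106102 normalized counts against 144178 to 146434 in the other knockouts, had a gap of 0.952 of the range of its log2 levels. That library also held the most Myh2, and the part of fibre type was not tested. The log2 ratio of Slc16a3 to Slc16a1 in floxed control 4, at 3.09 against 2.41 to 2.46 in the other floxed controls, had a gap of 0.923. The log2 ratio of Pfkm to Fbp2 in floxed control 1, at 6.18 against 5.85 to 5.90, had a gap of 0.831.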

How the results depend on the processing

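No member passed an adjusted p of 0.05 under any of the 22 alternatives; the lowest adjusted p was 0.0949, for Pgam2 without knockout 5. The count at an unadjusted p under 0.05 (5) was 9 with array weights, 1 without the mice numbered 3250 and 3251, 2 with the trend on length and GC content taken out, 9 without floxed control 4 and knockout 5, and 2 to 13 when each library was left out, with 3 without floxed control 4. Members with a higher mean numbered 22 to 27, and the median difference ranged from 0.067 to 0.24. Of the 30 members, 21 kept their direction throughout. Without the mice numbered 3250 and 3251, Gpi1 was at -0.0088, Pfkm at -0.069 and Phkg1 at -0.022. Leaving out single libraries turned the direction of 8 members, with ranges of -0.16 to 0.038 for Slc2a1, -0.013 to 0.088 for Hk1, -0.075 to 0.077 for Gpi1, -0.067 to 0.078 for Pfkm, -0.053 to 0.17 for Gpd1, -0.10 to 0.37 for Ppp1r3c, -0.13 to 0.68 for Ldhb and -0.12 to 0.031 for Pygm. It turned 4 ratios, with ranges of -0.57 to 0.48 for Ldha to Ldhb, -0.29 to 0.099 for Slc16a3 to Slc16a1, -0.31 to 0.015 for Pygm to Gys1 and -0.30 to 0.16 for Ppp1r3c to Ppp1r3a. Without floxed control 4 and knockout 5 these were 0.16 for Ldha to Ldhb, 0.081 for Slc16a3 to Slc16a1 and 0.074 for Ppp1r3c to Ppp1r3a. The count of ratios at an exact permutation p under 0.05 (1, Pgam2 to Pgam1) was 0 without the mice numbered 3250 and 3251 and 0 without floxed control 4 and knockout 5, which says nothing of stability, since 3 mice against 3 cannot give an exact p below 0.1; the differences there were 0.65 and 0.80. It was 0 to 1 when each library was left out, with differences of 0.47 to 0.75. The causes of the other shifts were not tested. No paired analysis was made, because nothing in the labels says that mice with equal numbers in the groups are pairs. Counts per gene cannot separate pseudogenes or antisense reads, and Pgm1 and Pgam1 rest on few reads.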

Other observations

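The malate-aspartate shuttle, which carries the reducing equivalents of glycolysis into mitochondria, was described after its values were seen. All 4 of its enzymes measured here had a higher mean in the knockout, as had 50.6% of all tested genes. None of the 4 passed an adjusted p of 0.05 by limma. Got1, the cytosolic aspartate aminotransferase, was at 15490, 13017, 11814 and 7851 normalized counts in floxed controls and 11029, 17544, 17834 and 17001 in knockouts (0.41, SE 0.209). Knockouts 6, 7 and 8 lay above every floxed control and knockout 5 among them. Mdh1, the cytosolic malate dehydrogenase, was at 9533, 9574, 10483 and 6936 in floxed controls and 7919, 12593, 16166 and 12362 in knockouts (0.40, SE 0.197), highest in knockout 7. The mitochondrial partners Got2 and Mdh2 differed by 0.34 (SE 0.163) and 0.16 (SE 0.0957). Got1, Got2 and Mdh1 were highest in knockout 7 and lowest in floxed control 4.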
